A study of Mus musculus with 14 samples.

Results

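Epithelial-mesenchymal transition (EMT) is the programme by which epithelial cells loosen their junctions, lose apical-basal polarity and take up the cytoskeleton, matrix and motility of mesenchymal cells. Transcription factors of the Snail, Twist and Zeb families bind E-box sequences and repress epithelial genes, of which E-cadherin is the classical target, while N-cadherin, vimentin, fibronectin and S100A4 serve as markers of the mesenchymal side. In the mammary gland Snai2 is also a normal gene of basal epithelial cells, and most of the mesenchymal markers are made in abundance by fibroblasts, pericytes and endothelial cells, so that their level in an epithelial preparation depends on the stroma in it.

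The genes described here are 10 regulators and markers of EMT, chosen by gene symbol: Cdh1, Cdh2, Vim, Fn1, S100a4, Snai1, Snai2, Twist1, Zeb1 and Zeb2. All 10 were among the 16124 genes of the deposited table of normalized counts, that is, of fragments per gene divided by the size factor of the library. RNA-seq compared mammary epithelial cells (MECs) of 7 WT and 7 Usp22 OE/OE nulliparous females aged 3.5 months, as 7 littermate pairs numbered 1, 3, 4, 5, 6, 7 and 8 with 1 library per mouse, to follow gene expression in a gland that branches excessively when this deubiquitinase is overexpressed. The OE/OE mice were homozygous for a Usp22 cDNA with FLAG and MYC tags at the ROSA26 locus, driven by the CAGGS promoter, whose stop cassette had been deleted with ZP3-Cre, a Cre of the oocyte, so that stroma as well as epithelium overexpressed Usp22 from the embryo onwards. The WT mice carried no overexpressing allele. The strain, the parity of the sequenced mice, and whether any WT mouse carried the Cre transgene are not given in the sources used here. Glands of a mouse were pooled, digested with collagenase and enriched for epithelial organoids by brief centrifugation, without a sort by surface marker, so that each library was a bulk of epithelium and whatever stroma remained.

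Usp22 itself ranged from 3500 to 5380 normalized counts in WT and from 74948 to 144288 in OE/OE MECs, a log2 fold change of 4.65, higher in all 7 pairs. The libraries held 20125106 to 41835978 fragments on genes (median 37838930), with the WT libraries of pairs 1 and 8 the shallowest. Epithelial markers were abundant. Krt8, a keratin of luminal cells, had the highest mean level per length of a 12-gene pan-epithelial list, at 68486 normalized counts per kb of exon. Acta2, a contractile actin of basal cells, reached 21099 normalized counts per kb. It is also among the mesenchymal effectors examined below, so its level cannot be credited to basal epithelium alone. Stromal markers were present in every library as well, and no gene of any list that the table holds was at 0 in any of the 14 libraries (10 of 12 lymphocyte genes and every gene of the other lists were in the table). The highest mean levels per kb were 4355 for Dcn of the fibroblast list, 1673 for Rgs5 of the pericyte list, 5678 for Plvap of the endothelial list, 5250 for Cd14 of the macrophage list, 3622 for Fabp4 of the adipocyte list and 55.9 for Trac of the lymphocyte list. These are values of single genes. Over a whole list, the WT mean of log2(normalized count + 1) was 12.4 for fibroblast, 12.3 for endothelial and 9.77 for pericyte markers. It was 9.04 for macrophage, 7.92 for adipocyte and 4.95 for lymphocyte markers.

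The counts of the 10 genes in WT MECs spanned from an abundant epithelial cadherin to S100a4, with few fragments. As 51.7% of the exon sequence of S100a4 is shared with another annotated gene, its place depends on how overlapping genes were treated. Per length, on the scale of normalized counts per kb of exon, the WT medians in descending order were 9301 for Cdh1, 6153 for Vim, 1168 for Fn1, 291 for Snai2, 243 for Snai1, 132 for Twist1, 101 for Zeb1, 66.7 for Zeb2, 40.3 for Cdh2 and 20.4 for S100a4. Cdh1 therefore stood first and N-cadherin next to last, while vimentin and fibronectin stood high. Of the neighbours in this order, the WT ranges did not overlap between Vim and Fn1, between Fn1 and Snai2, and between Snai1 and Twist1; all other neighbours overlapped. Snai2 was above Snai1 in 4 of the 7 WT mice only, so that these Snail genes could not be ordered.

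Per kb, the WT level of Vim was 0.420 to 0.934 of that of Cdh1 (median 0.671), and in OE/OE it was 0.238 to 0.799 (median 0.653), higher in OE/OE in 1 of the 7 pairs. The ratio of Cdh2 to Cdh1 was 0.00310 to 0.00776 in WT (median 0.00430) and 0.00242 to 0.00734 in OE/OE (median 0.00561), higher in OE/OE in 4 pairs. The WT and OE/OE ranges overlapped for each of these ratios, and no paired test was run on them.

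Limma called none of the 10 genes in the paired comparison of OE/OE with WT MECs, at an unadjusted p of 0.05 or less. That threshold is the study's, but the study applied it to another paired test, gene by gene, on normalized counts. The study's test was not run here, so whether any of the 10 met its own criterion was not tested. Cdh1 was under 0.05 in the exact sign-flip test given with its values. With limma on log2(normalized count + 1) and the littermate pair as a block, 0 of the 10 passed, against 614 (3.81%) of all 16124 genes, and 0 of the 10 passed with edgeR or with DESeq2 on the recovered fragments. All 10 had a limma adjusted p of 1.00, and 2 genes (0.0124%) of the whole table had one under 0.05. In all 10 the WT and OE/OE mice overlapped, as they did in all but 7 (0.0434%) of the 16124 genes. None of the 10 kept 1 direction in all 7 pairs, which 1.51% of all genes did; 2 of the 10, Cdh1 and Twist1, kept 1 direction in 6 of 7, which 14.1% of all genes reached or passed. Log2 fold changes were above 0 in 3 of the 10 and below 0 in 7, with a median of -0.13 beside -0.00 over all genes. In a bulk library, fewer cells of a type and less RNA per cell cannot be told apart, and this holds for each of the values that follow.

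**Figure D1:**
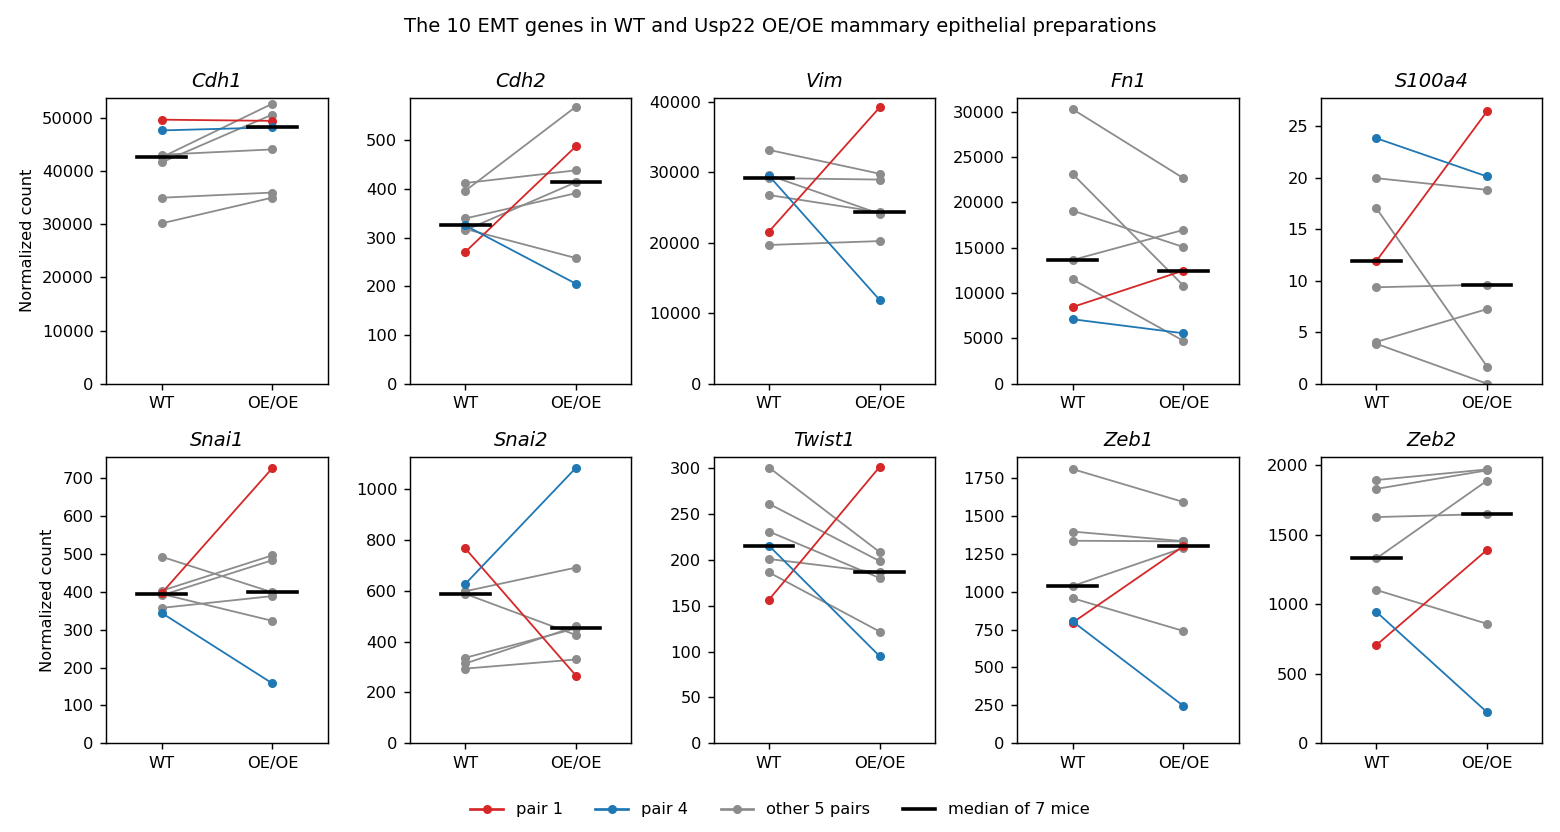
Normalized counts (linear axis from 0) of the 10 EMT genes in WT and OE/OE mice, with a line for each littermate pair and a bar for the median of the 7 mice. The ranges overlap for every gene, and the lines of pair 1 (red) and pair 4 (blue) run in opposite directions for every gene but Cdh1, whose lines are nearly flat.

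Cdh1 encodes E-cadherin, the adhesion protein of epithelial adherens junctions (chromosome 8, 106603351 to 106670246, plus strand, GRCm38). WT mice had from 30132 to 49608 normalized counts with a median of 42541, and OE/OE mice had from 34966 to 52616 with a median of 48152. The lowest mouse of each genotype came from pair 6, and the ranges overlapped over most of their width. The WT mean of 41347 ± 6811 and the OE/OE mean of 45090 ± 7099 (both SD, n = 7 mice) gave a log2 fold change of 0.13 (standard error, SE, 0.09, 95% interval -0.08 to 0.33). In fold terms the interval ran from 0.945 to 1.26, the narrowest of the 10 genes. Cdh1 was higher in OE/OE in 6 of the 7 pairs, by 0.31 in pair 3, 0.28 in pair 5 and 0.21 in pair 6 on the log2 scale and by less than that in the other 3, and was at -0.01 in pair 1. The tests differed on Cdh1. Limma gave an unadjusted p of 0.203, with the SE of 0.09 given above. The exact two-sided sign-flip test of the 7 pairs, which uses only the differences of Cdh1 itself, gave p = 0.0312. In that test 4.38% of all genes reached a value at or under 0.05. The SD of the 7 pair differences of Cdh1 was 0.14 on the log2 scale. The study's own paired test was not run on Cdh1. Litters differed most for Cdh1 among the 10 genes, taking 85.7% of its spread on the log2 scale, where the median over all genes was 73.9%.

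N-cadherin, encoded by Cdh2 (chromosome 18, 16588877 to 16809246, minus strand), replaces E-cadherin in the cadherin switch of EMT. It had 271 to 412 normalized counts in WT (median 325) and 205 to 570 in OE/OE (median 414). The OE/OE mice thus spread on both sides of the WT range, the lowest being that of pair 4 and the highest that of pair 7. On the log2 scale the fold change was 0.16 (SE 0.17, 95% interval -0.23 to 0.54), and 5 pairs of 7 were higher, with p = 0.453 by exact sign flips. Fitted with the mean of the fibroblast list as a covariate, Cdh2 had a log2 fold change of 0.42 and an unadjusted limma p of 0.0186, the one call that this covariate made among the 10 genes, where it called 3.46% of all genes. With the macrophage or the pan-epithelial list as covariate none of the 10 was called, and 2.7% and 3.4% of all genes were.

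Vimentin, the intermediate filament of mesenchymal cells, is encoded by Vim (chromosome 2, 13573927 to 13582826, plus strand). WT mice had 19694 to 33179 normalized counts (median 29185), and OE/OE mice had 11872 to 39229 (median 24346). Both the lowest and the highest of the 14 mice were OE/OE, from pair 4 and pair 1. The log2 fold change was -0.14 (SE 0.21, 95% interval -0.61 to 0.32), and 5 pairs of 7 were lower, with p = 0.547 by exact sign flips. The differences were 0.86 in pair 1 and -1.31 in pair 4 on the log2 scale, and between -0.30 and 0.04 in the other 5. Without pair 4 the log2 fold change of Vim was 0.05.

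Fibronectin, a matrix glycoprotein that mesenchymal cells secrete and assemble, is encoded by Fn1 (chromosome 1, 71585520 to 71653200, minus strand). Normalized counts of Fn1 were 7106 to 30250 in WT (median 13645) and 4730 to 22651 in OE/OE (median 12469). Pair 7 held the highest mouse of each genotype. Of the spread of Fn1 on the log2 scale, 77.5% lay between litters and 5.98% between genotypes. The medians over all genes were 73.9% and 1.43%. Its log2 fold change was -0.37 (SE 0.21, 95% interval -0.85 to 0.10, limma unadjusted p 0.108), with 5 of 7 pairs lower and the largest falls in pair 3 (-1.28) and pair 6 (-1.10). Fn1 crossed the threshold when pair 1 was left out, at a log2 fold change of -0.53 and a limma unadjusted p of 0.0249, where 7.42% of all genes were called instead of 3.81%.

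S100a4, which encodes a calcium-binding protein also called FSP-1 and which the study used as its marker of stromal fibroblasts, was close to the limit of detection. Its gene lies on chromosome 3 at 90603771 to 90606045 (plus strand), and 51.7% of its exon sequence is shared with the annotated gene Gm42674 on the same strand, so that its count depends on how overlapping genes were treated, which is not given in the sources used here. WT libraries held 7, 24, 27, 5, 11, 4 and 11 fragments in pairs 1, 3, 4, 5, 6, 7 and 8, and OE/OE libraries 25, 20, 21, 0, 11, 8 and 2 in the same order. Of the 34074791 fragments of the OE/OE library of pair 5 none fell on S100a4, and the limit that a count of 0 allows, 3 fragments, corresponds to 3.24 normalized counts there, for counting error only. On the log2 scale the fold change was -0.50 (SE 0.48, 95% interval -1.58 to 0.57), the widest interval of the 10 genes, from 0.335 to 1.48 in fold terms. This value moved to -0.99 with a pseudocount of 0.1, to -0.12 with one of 10, to -0.27 in edgeR and to -0.13 without pair 8. By contrast S100a6, a neighbouring gene of the same family chosen after its values were seen, had a WT median of 13203 normalized counts per kb.

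**Figure D2:**
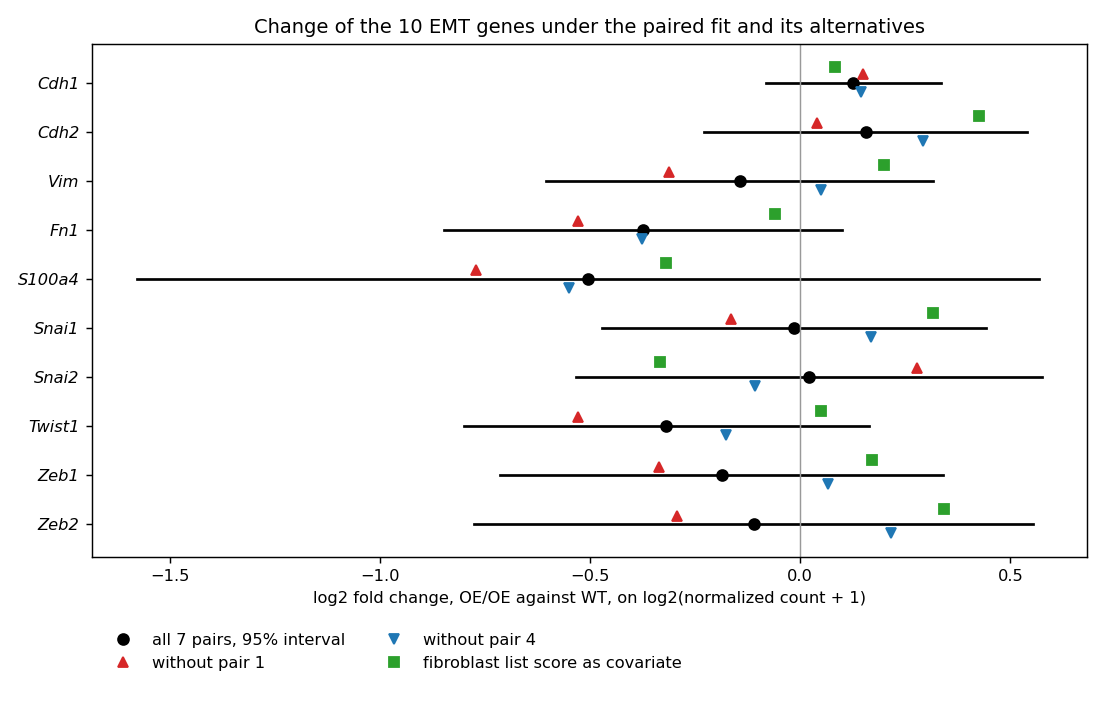
Log2 fold change of each of the 10 EMT genes, OE/OE against WT, on the log2(normalized count + 1) scale: the black point and line give the paired fit with its 95% interval, and coloured symbols the value without pair 1, without pair 4 and with the fibroblast list as covariate. Every interval spans 0, and for Vim, Snai1, Snai2, Zeb1 and Zeb2 the value without pair 4 lies on the other side of 0.

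Among the transcription factors, Snai1 encodes Snail (chromosome 2, 167538195 to 167542814, plus strand), a zinc-finger repressor of Cdh1. It had 345 to 493 normalized counts in WT (median 395) and 158 to 728 in OE/OE (median 399). The WT mice were closely grouped, whereas the OE/OE mice extended beyond them in both directions, to the mouse of pair 4 below and that of pair 1 above. The log2 fold change was -0.02 (SE 0.20, 95% interval -0.47 to 0.44), with 4 pairs higher and 3 lower.

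Snai2 encodes Slug (chromosome 16, 14705852 to 14709385, plus strand), the Snail family member of basal mammary cells. It had 294 to 767 normalized counts in WT (median 588) and 266 to 1085 in OE/OE (median 453). Here the order of the mice was turned round, the OE/OE mouse of pair 1 being the lowest of all 14 and that of pair 4 the highest. Its log2 fold change was 0.02 (SE 0.25, 95% interval -0.53 to 0.58), and 5 of 7 pairs were higher. The differences were -1.52 in pair 1 and 0.79 in pair 4 on the log2 scale. Per kb, the ratio of Snai2 to Snai1 was 0.511 to 1.55 in WT and 0.293 to 5.50 in OE/OE, so that either Snail gene could be the more abundant in both genotypes.

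For Twist1, a basic helix-loop-helix factor of mesoderm and connective tissue (chromosome 12, 33957671 to 33959829, plus strand), WT mice had 157 to 301 normalized counts (median 216) and OE/OE mice 95 to 302 (median 186). It was lower in OE/OE in 6 of the 7 pairs, the log2 differences of these running from -1.17 to -0.11, and higher by 0.94 in pair 1. Genotype took 13.2% of its spread on the log2 scale, the most of the 10 genes, where the median over all genes was 1.43%. With all pairs the log2 fold change was -0.32 (SE 0.21, 95% interval -0.80 to 0.16, limma unadjusted p 0.170). Without pair 1 Twist1 passed the threshold, at a log2 fold change of -0.53 and a limma unadjusted p of 0.00762, as one of the 7.42% of genes called without that pair.

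The E-box CAGGTG, read on either strand, is the sequence that Snail and Zeb factors bind. It was searched in the RefSeq promoters (GRCm38.p6, 250 bases before to 50 after the start) of Vim, S100a4, Snai1, Twist1 and Zeb2, the genes for which a promoter was read. Of these genes Snai1, a gene of the family that binds the motif, held it, once, 126 bases before its start. On 1 strand or the other, 22.6% of 27025 genes with a promoter and 20.2% of 32851 single promoters hold it. The promoters provided included none for Cdh1, Fn1 or Snai2, so the classical target was not searched. Snai1 and Vim had a Pearson's r of 0.84 over the 14 libraries, although their differences within pairs 3, 5, 6 and 8 had opposite signs. Their promoters are shown with the E-box in capitals, read as CACCTG on the gene's strand. That of Vim, chr2:13574061-13574360 (plus strand), has none, and that of Snai1 is chr2:167537945-167538244 (plus strand).
Snai1: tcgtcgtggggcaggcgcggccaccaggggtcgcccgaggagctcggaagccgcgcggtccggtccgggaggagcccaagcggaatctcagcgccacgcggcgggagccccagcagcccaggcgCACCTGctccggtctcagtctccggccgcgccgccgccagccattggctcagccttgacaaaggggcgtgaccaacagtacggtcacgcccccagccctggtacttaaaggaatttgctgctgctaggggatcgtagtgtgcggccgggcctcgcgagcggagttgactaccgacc
Vim: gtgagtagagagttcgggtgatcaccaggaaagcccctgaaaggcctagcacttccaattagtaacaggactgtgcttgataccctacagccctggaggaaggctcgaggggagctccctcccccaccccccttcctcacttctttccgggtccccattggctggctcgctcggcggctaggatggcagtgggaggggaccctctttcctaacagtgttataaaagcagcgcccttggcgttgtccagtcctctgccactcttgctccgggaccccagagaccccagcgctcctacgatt
Those read for Twist1, Zeb2 and S100a4 held no copy either. These letters were matched only; no binding was measured.

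The zinc-finger homeobox repressors Zeb1 (chromosome 18, 5591860 to 5775467, plus strand) and Zeb2 (chromosome 2, 44983632 to 45117395, minus strand) varied together. Zeb1 had 796 to 1808 normalized counts in WT (median 1037) and 246 to 1591 in OE/OE (median 1299). Zeb2 had 707 to 1895 in WT (median 1331) and 223 to 1972 in OE/OE (median 1651). Both were lowest of all in the OE/OE mouse of pair 4, far under the next mouse, and pair 7 held the highest mouse of each genotype. On the log2 scale the fold change was -0.19 (SE 0.23, 95% interval -0.71 to 0.34) for Zeb1, which was lower in 5 of 7 pairs. For Zeb2 it was -0.11 (SE 0.30, 95% interval -0.77 to 0.55), with 5 of 7 pairs higher. The mean of Zeb2 was thus set against most of its pairs by pair 4, at -2.08 on the log2 scale. Without pair 4 the log2 fold change was 0.07 for Zeb1 and 0.22 for Zeb2. Per kb, the ratio of Zeb2 to Zeb1 stayed within 0.457 to 0.706 in WT and 0.467 to 0.760 in OE/OE, the mouse of pair 4 included.

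Most of the 10 genes differed between OE/OE and WT in opposite directions in pairs 1 and 4. In 6 of them, Cdh2, Vim, Snai1, Twist1, Zeb1 and Zeb2, the difference OE/OE minus WT was highest in pair 1 and lowest in pair 4, an order found in 12.5% of all genes, and in Snai2 it was the reverse, as in 12.2% of all genes. Cdh1, Fn1 and S100a4 had other orders, with the lowest difference in pair 1 for Cdh1, pair 3 for Fn1 and pair 8 for S100a4. Zeb2 spanned the most among these, from 0.98 in pair 1 to -2.08 in pair 4 on the log2 scale. The summed marker lists moved in the same pairs: the mean log2 level of the fibroblast list differed by 0.73 in pair 1 and -1.14 in pair 4, that of the pericyte list by 0.83 and -1.53, and that of the endothelial list by 0.92 and -1.74. The basal list, which holds none of the 10 genes, was at -0.63 in pair 1 and 0.17 in pair 4. The part of these cell types in the differences of the 10 genes was not tested beyond the fits with a list as covariate or reference.

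**Figure D3:**
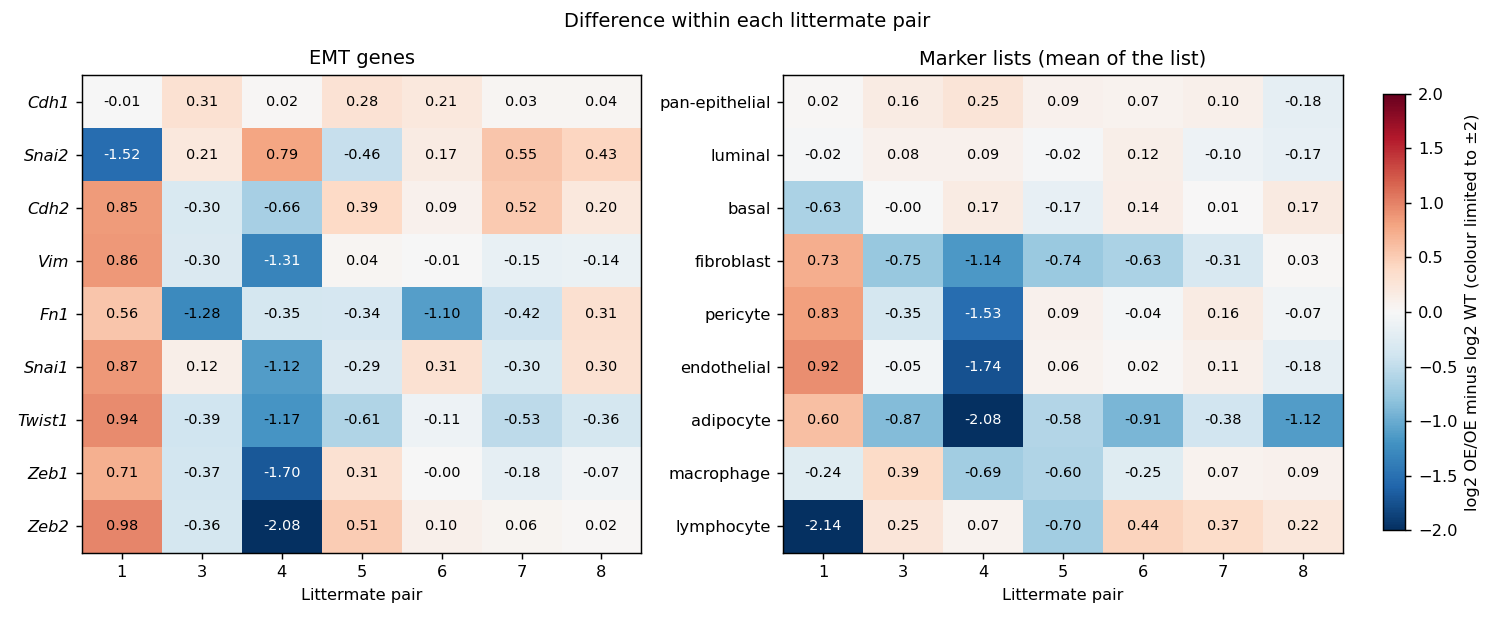
Differences within each littermate pair, log2 OE/OE minus log2 WT, for the EMT genes other than S100a4 (left) and for the mean log2(normalized count + 1) of 9 marker lists (right), red for higher and blue for lower in OE/OE. Pair 1 is red and pair 4 blue for Cdh2, Vim, Fn1, Snai1, Twist1, Zeb1 and Zeb2 and for the fibroblast, pericyte, endothelial and adipocyte lists, and Snai2 has the opposite colours.

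Across the 14 libraries, Pearson's correlations of log2(normalized count + 1) described which genes each one resembled. The points are bulk libraries that share litters and differ in their level of stromal markers. Genes with a mean of at least 100 normalized counts were ranked, and medians over a list used these genes only. They were 7 of the 8 pericyte, 11 of the 12 macrophage and 5 of the 10 adipocyte markers. Zeb1 and Zeb2 were close to each other (r = 0.98) and to Abcc9, a potassium channel subunit on the pericyte list (r = 0.985 with Zeb1 and 0.994 with Zeb2). Abcc9 was the gene nearest to Zeb2, followed by Filip1 (0.991) and Shroom4 (0.990), whereas Dlc1 (0.987) and Prex2 (0.986) came before it for Zeb1. Over the ranked genes of the pericyte list the median r was 0.88 for each Zeb gene. Over the pan-epithelial list it was -0.71 for Zeb1 and -0.74 for Zeb2.

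Vim was nearest to C1ra (0.977), Cygb (0.975) and Tfpi (0.966), with a median r of 0.90 over the endothelial and 0.68 over the fibroblast list, and r = 0.91 with Twist1. Twist1 was nearest to Serpinf1 (0.955), a secreted protein of the fibroblast list, then Cpz (0.951) and Hsd11b1 (0.926), and had a median r of 0.77 over the endothelial list and of 0.73 over the fibroblast list, the highest of the 10 genes with the latter. Snai1 was nearest to Ugcg (0.945), Sh2d3c (0.934) and Gimap5 (0.924), with a median r of 0.84 over the endothelial list. Fn1 was nearest to the matrix genes Col5a3 (0.966), Fbn1 (0.956) and Nid1 (0.937). Cdh2 was nearest to Slc6a9 (0.937), Cadm2 (0.926) and L1cam (0.924). Of the stromal lists, the endothelial one had the highest median r for Vim, Snai1 and Twist1, and the pericyte one for Cdh2, Fn1, Zeb1 and Zeb2.

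Snai2 and Cdh1 stood on the other side. Snai2 was nearest to Wnt10a (0.935), a Wnt ligand, then to Arl4c (0.930) and Vasp (0.927). It had a median r of 0.60 over the basal list and -0.78 over the pericyte list, and r = -0.85 with Zeb1. Cdh1 was close to Eps8l2 (0.908) and Fam129b (0.907), and had a median r of 0.41 over the pan-epithelial list. S100a4, with few fragments, was nearest to Ggact (0.938), 1600002K03Rik (0.937) and Mpc1 (0.937), and its median r was 0.17 over the fibroblast list.

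**Figure D4:**
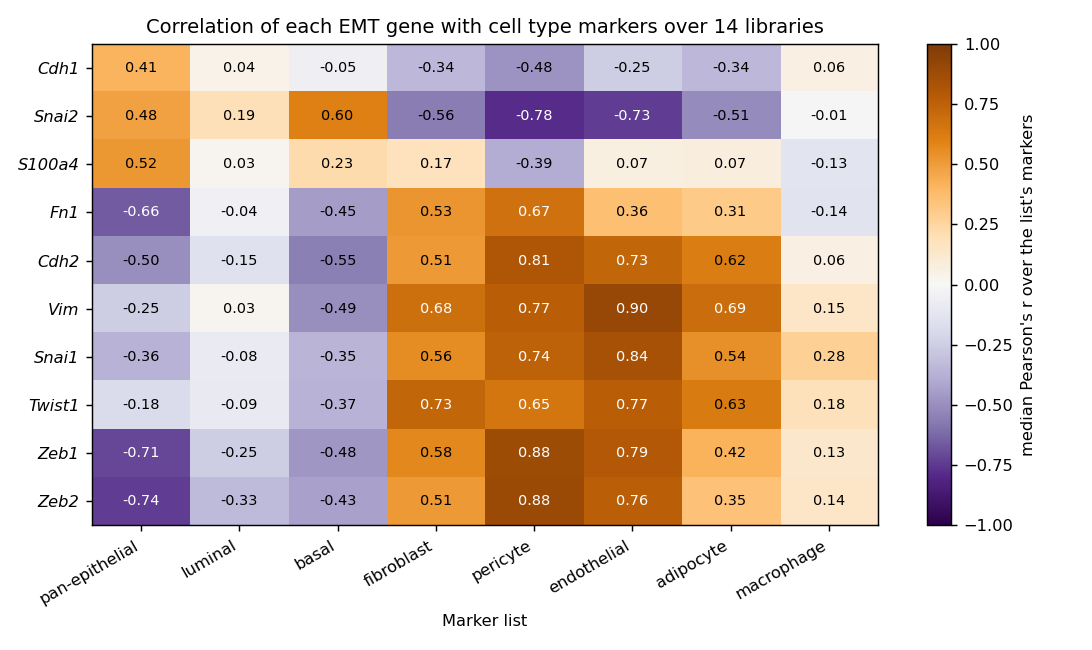
Median Pearson's r, over 14 libraries, of each EMT gene (rows) with the genes of 8 marker lists (columns), on a scale from -1 (purple) to 1 (orange). Cdh2, Vim, Fn1, Snai1, Twist1, Zeb1 and Zeb2 are orange for the fibroblast, pericyte and endothelial lists, and Snai2 is purple for these and orange for the basal list.

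Fibroblast markers were lower in OE/OE in 5 of the 7 pairs, without passing a test. The mean log2 level of the 15-gene list was 11.9 to 12.9 in WT and 11.02 to 12.6 in OE/OE, a mean pair difference of -0.40 ± 0.62 (SD, n = 7 pairs, exact sign-flip p = 0.156). Of its 15 genes 2 were called lower and none higher, beside 1.85% of all genes called lower. The adipocyte list, with 5 of 10 genes called lower, differed by -0.76 ± 0.81 and was lower in 6 pairs (n = 7, exact sign-flip p = 0.0625). The pericyte list ranged from 9.25 to 10.3 in WT and from 8.11 to 10.2 in OE/OE and the endothelial list from 11.9 to 12.6 and from 10.6 to 13.0, with none of their 8 and 13 genes called. The pericyte, endothelial, macrophage and lymphocyte lists had mean differences between -0.21 and -0.12, the pan-epithelial list 0.07, the luminal list -0.00 and the basal list -0.05, with exact sign-flip p-values from 0.203 to 0.906.

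Relative to the mean of the fibroblast list in each library, 9 of the 10 genes had a positive log2 fold change, and none passed the threshold, where 8.48% of all genes did, 8.24% higher and 0.242% lower. The values were 0.56 for Cdh2 and 0.53 for Cdh1 (limma unadjusted p 0.0619 and 0.0626, SE 0.30 and 0.28), 0.42 for Snai2, 0.39 for Snai1, 0.29 for Zeb2, 0.26 for Vim, 0.22 for Zeb1, 0.08 for Twist1, 0.03 for Fn1 and -0.10 for S100a4. Fn1 and Twist1, with the most negative fold changes after S100a4 before this step, were thus within 0.1 of the fibroblast list. This count changed with the pairs used, since without pair 1 Snai2 (0.87), Cdh1 (0.74) and Cdh2 (0.63) were called, where 67.3% of all genes were. Without pair 4 Cdh2 (0.57) was called, and without pair 8 Cdh1 (0.62). The share of all genes called without pair 4 or 8 was not counted, so these calls cannot be read as particular to Cdh2 or Cdh1. The number called also rested on the list, as Cdh1, Cdh2, Vim, Snai1 and Zeb2 were called relative to the adipocyte list, where 62.4% of all genes were.

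Other genes of the programme were examined in 5 groups, of which 79 of 81 genes were in the table. Unadjusted, limma called 4 of the 79 higher and 2 lower in OE/OE, where 1.95% of all genes were called higher and 1.85% lower, and each had an adjusted p of 1.00. Without pair 1 or without pair 4 the calls rose to 13, where 7.42% and 8.47% of all genes were called, and without pair 8 to 10, where 2.99% were.

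Genes of epithelial junctions had a positive log2 fold change in 17 of 18, with a median of 0.09, and 3 rose. Cldn7, which encodes a claudin of tight junctions and is also on the pan-epithelial list, had 4483 to 8402 normalized counts in WT (median 6170) and 5418 to 12708 in OE/OE (median 7174). It rose in all 7 pairs, with a log2 fold change of 0.35 (SE 0.09, exact sign-flip p = 0.0156, the smallest that 7 pairs allow), and stayed called with each pair left out. Ctnnd1, which encodes the p120 catenin that stabilizes cadherins, rose by 0.19 (SE 0.06), in all 7 pairs, although 61.2% of its exon sequence is shared with the annotated gene Gm28635. Jup, which encodes plakoglobin, rose by 0.25 (SE 0.10), in 6 of 7 pairs, but was called in only 3 of the 7 fits that left out a pair, losing the call without pair 3, 5, 6 or 8. With the fibroblast list as covariate Jup (0.21) and Ctnnd1 (0.17) were no longer called, at limma unadjusted p-values of 0.137 and 0.0536, and the median of the group was 0.02, with 1 gene called higher and 1 lower. Jup was not called with the macrophage or the pan-epithelial list as covariate either. The lowest of the group was Cldn1, at -0.15 (SE 0.18).

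All 13 regulators of the epithelial state had a positive log2 fold change (median 0.18), and 1 rose: Elf3, an epithelial ETS factor. It had 3885 to 7594 normalized counts in WT (median 4712) and 4890 to 10037 in OE/OE (median 7225), a log2 fold change of 0.43 (SE 0.13). Elf3 was higher in 6 of 7 littermate pairs, with p = 0.0469 by exact sign flips, and stayed called with each pair left out and with each of the 3 marker lists used as covariates. With the fibroblast list as covariate the median of the group was 0.06. The lowest of the group was Esrp2, an epithelial splicing regulator, at 0.01.

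Mesenchymal effectors leaned the other way, with a log2 fold change below 0 in 18 of 22, a median of -0.23 and 2 that fell. Postn, which encodes the matrix protein periostin, had 22101 to 59047 normalized counts in WT (median 34840) and 18200 to 35391 in OE/OE (median 21890), a log2 fold change of -0.58 (SE 0.22). Cdh11, a cadherin of mesenchymal cells, had 516 to 2028 in WT (median 984) and 238 to 1259 in OE/OE (median 682), a log2 fold change of -0.49 (SE 0.17). Each was lower in 5 of 7 pairs, with an exact sign-flip p of 0.0625. The call was lost without pair 1, 5 or 7 for Postn and without pair 3 for Cdh11, which was also at -0.19 (limma unadjusted p 0.170) with the fibroblast list as covariate, whereas Postn stayed called with it, at -0.70. Neither was called with the macrophage or the pan-epithelial list as covariate. With the fibroblast list as covariate the median of the group was -0.01, and 4 of its genes stand on the fibroblast list too. Mmp3, a matrix metalloproteinase, had the lowest value at -0.61 (SE 0.33), and Cd44, a hyaluronan receptor, the highest at 0.15.

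Neither the other EMT transcription factors nor the inducers held a gene that passed. Of the 13 factors measured, 5 had a log2 fold change above 0 and 8 below, with a median of -0.04, and Klf8, a Krüppel-like factor, had the highest value at 0.22. The 13 inducers, ligands, receptors and mediators of TGF-β, Notch, HGF and hypoxia signalling, had 8 values above 0 and 5 below with a median of 0.04. They ran from -0.12 for Tgfbr2, the type II TGF-β receptor, to 0.22 for the ligand Tgfb3.

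**Figure D5:**
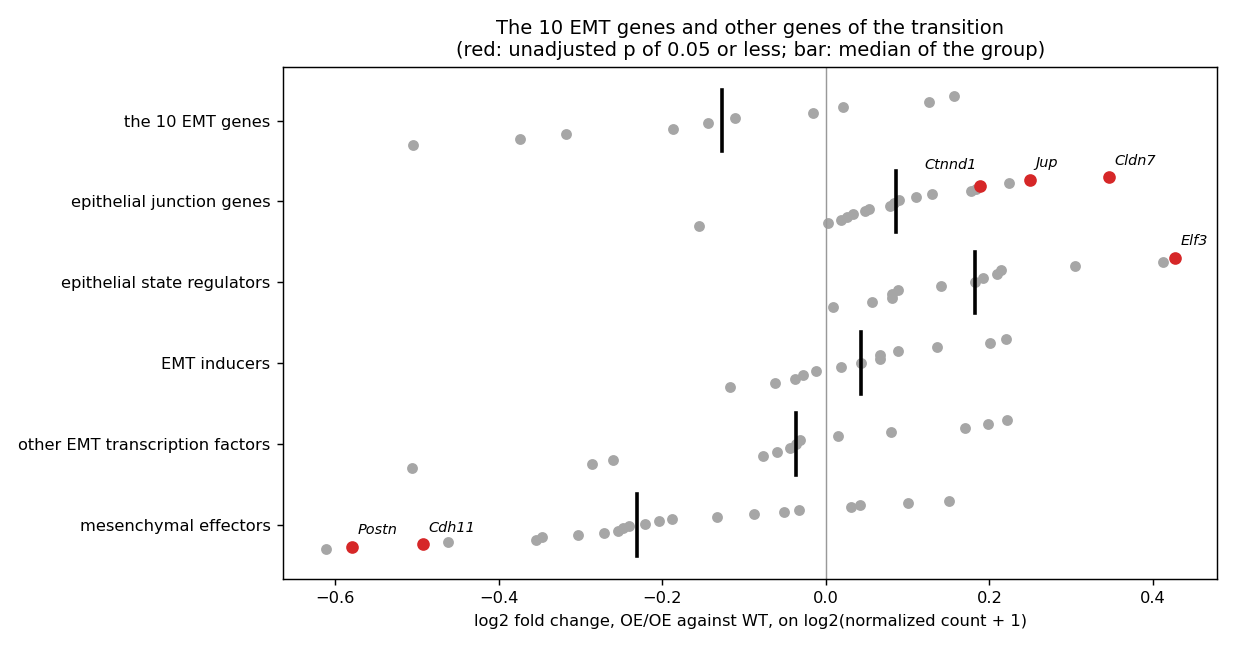
Log2 fold change, OE/OE against WT on the log2(normalized count + 1) scale, of the 10 EMT genes and of 79 other genes of the transition in 5 groups; each point is a gene, its height within a row is its rank, red marks genes past the unadjusted threshold in limma, and the bar is the group's median. The medians run from 0.18 for the epithelial state regulators to -0.23 for the mesenchymal effectors, and none of the 10 EMT genes is red.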

How the data were processed

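Per the labels and the study's methods, the authors prepared the libraries with a TruSeq mRNA kit, mapped paired reads to mm10 with TopHat2 2.0.10, counted fragments on GENCODE genes with HTSeq 0.6.0 and dropped genes that did not reach 10 fragments in 7 or more libraries. The deposited values are a signal, counts divided by DESeq 1.18.0 size factors, with no samples pooled. The strand setting and the handling of overlapping genes are not given in the sources used here.

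The deposited signal was divided back into fragments, and 100% of the values were whole multiples of 1 fragment within 0.01, which gave the depth (20125106 to 41835978 fragments). Positions, exon lengths and exon sharing came from the GENCODE M21 annotation of GRCm38. The fit was limma 3.58.1 in R 4.3.3 with a trend on log2(normalized count + 1) (low genes appear to change less on this scale), with the littermate pair as a block and Benjamini-Hochberg adjustment over 16124 genes. Single values were also tested by exact two-sided sign flips of the 7 pairs (128 patterns). The study's own paired test of each gene was not rerun. Same-numbered mice are littermates, and their deviations from the genotype mean had a median correlation over genes of 0.522 (0.171 to 0.748). The median was -0.151 for the 42 other combinations (-0.538 to 0.634), so the ranges overlapped. On the recovered fragments, edgeR 4.0.16 called 597 genes and DESeq2 1.42.0 called 626 at an unadjusted p of 0.05 or less. In simulated counts limma recovered 94% of 200 genes with a log2 change of 1 unadjusted and 68% adjusted. The simulated counts held no difference between litters and no variation shared among genes, so these shares need not hold for the mice here. Recovery of smaller log2 changes was not tested, and the log2 fold changes of the 10 genes ran from -0.50 to 0.16.

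The 10 genes, the marker lists and the 5 groups were chosen with earlier results of these data known. Named besides the 10 genes were Usp22, the called and the most extreme genes of each group, the 3 most correlated genes of each of the 10, and the top gene of each marker list. The results of 2 genes that this rule names are not reported here. Marker levels are means of log2(normalized count + 1) over a list. Alternatives covered the pseudocount, a minimum mean of 50, the trend, the block, quantile normalization, other tools, marker lists as covariate or reference, and each pair left out.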

Additional observations from a re-analysis of the deposited data

Results flagged for a closer look

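Of 38 groups of 7 mice examined, 4 had a mouse far from the other 6, where about 1.9 would by chance. The groups share mice and correlated genes, and all but 1 of the flags fell on the same mouse, so the 4 are not separate events. The OE/OE mouse of pair 4 was at 7.95 for Zeb1 on the log2(normalized count + 1) scale, with the next OE/OE mouse at 9.53. The same mouse was at 7.81 for Zeb2, the next being at 9.75. Its pericyte list, which holds Abcc9, the gene closest to Zeb2, was at 8.11 beside 9.49 in the next mouse. The lymphocyte list of the WT mouse of pair 1 was at 7.36, above the 5.26 of the next WT mouse. The part of pericytes in the low Zeb1 and Zeb2 of pair 4 was not tested.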

How the results depend on the processing

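Over 189 alternative values of the 10 log2 fold changes, 158 kept their direction and their side of the threshold, 27 changed sign and 4 crossed the threshold; S100a4 has no value at a minimum mean of 50. With the fibroblast list as covariate 1 of the 10 was called, and Vim (0.20), Snai1 (0.32), Snai2 (-0.33), Twist1 (0.049), Zeb1 (0.17) and Zeb2 (0.34) changed sign. With the pan-epithelial list Vim (0.048), Snai1 (0.21), Snai2 (-0.079), Zeb1 (0.063) and Zeb2 (0.20) did, and with the macrophage list Snai1 (0.12) and Zeb2 (0.0054). Snai1 was 0.037 after quantile normalization, and on untransformed counts Snai1 was 0.10 and Zeb2 0.076. With each pair left out in turn, Vim ran from -0.31 to 0.050, Snai1 from -0.16 to 0.17, Snai2 from -0.11 to 0.28, Zeb1 from -0.34 to 0.066 and Zeb2 from -0.29 to 0.22, while the other 5 kept their sign, Cdh2 running from 0.041 to 0.29, S100a4 from -0.77 to -0.13, Fn1 from -0.53 to -0.22, Twist1 from -0.53 to -0.18 and Cdh1 from 0.097 to 0.15. The calls then ran from 0 to 2 of the 10 genes, from 381 to 1366 of all genes (1196 without pair 1, 1366 without pair 4, 381 without pair 6), from 4 to 13 of the 79 other genes and from 0 to 3 of the 10 relative to the fibroblast list. Without the littermate block 182 genes, 2 of the 79 and, relative to the fibroblast list, 1 of the 10 (Cdh2) were called. For that relative fit the share of all genes called was not counted. Of the 79 genes 3 were called with the macrophage and 3 with the pan-epithelial list as covariate, and 5 of the 10 relative to the adipocyte list. The cause of these changes was not tested.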
